A study of Mus musculus with 13 samples.

Results

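The genes Bcl3, Nfil3, Etv3, Bcl6, Sbno2 and Zfp36 encode repressors of inflammation that have been described as induced by interleukin-10 (IL-10). Acetylation of histone H3 at lysine 27 (H3K27ac), a mark of active promoters and enhancers, was described at these 6 genes of the 14978 protein-coding genes that had a marked region. Their members were the regions of a consensus table of 40691 regions that overlapped the body of one of the genes, or that had it as the nearest protein-coding gene within 100 kb. This gave 20 regions: 8 at Bcl6, 5 at Nfil3, 3 at Sbno2, 2 at Bcl3, and 1 each at Etv3 and Zfp36. Within a gene the regions are numbered by increasing coordinate, and the signal of a gene is summed over all regions placed with it.

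IL-10 binds a receptor made of Il10ra and Il10rb chains, whose kinases Jak1 and Tyk2 activate the transcription factor Stat3. In macrophages IL-10 lowers the output of inflammatory genes, and Stat3 is known to act through other genes that it turns on, among them transcriptional repressors and a factor that promotes mRNA decay. Bcl3 is an atypical IκB protein that holds inhibitory NF-kB dimers on DNA, Nfil3 a basic leucine zipper repressor, Etv3 an ETS-family repressor, Bcl6 a zinc finger repressor that recruits corepressors, Sbno2 a helicase-like corepressor, and Zfp36 (tristetraprolin) a protein that binds AU-rich elements and destabilises inflammatory mRNAs.

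The libraries came from mouse bone marrow-derived macrophages, grown from marrow precursors with M-CSF. All cells, controls included, were of genotype IL10-/-RAG2-/- on the 129S6/SvEvTac strain, so they made no IL-10 of their own and came from animals without mature T and B cells; the labels give no age for the animals. The 4 groups of 3 libraries were untreated cells, cells given bacterial lipopolysaccharide (LPS) at 1 ng/mL for 195 min, cells that received LPS together with IL-10 (1 ng/mL) for all 195 min (continuous IL-10), and cells given LPS for 195 min with IL-10 only in the last 30 min (late IL-10). The replicates of the groups came from 3 macrophage pools. The comparisons ask how LPS changes the mark at these genes and how each IL-10 schedule changes the LPS state. An input library was not used here. Because whole cultures were measured, a smaller share of cells carrying the mark and less mark per cell cannot be told apart.

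Values are the deposited signal, which in each library equals whole reads times 1 scaling factor. The libraries held between 5149730 and 26922552 reads in all regions. Values are means ± SD of 3 libraries, and changes are log2 differences of value + 1 fitted with limma over all 36621 regions or 13480 genes that passed a filter on low values. Every adjusted p is Benjamini-Hochberg adjusted over all of them, and a change is called at an adjusted p under 0.05. All 6 gene sums and 19 of the 20 regions passed the filter. With 3 libraries a group, the smallest p an exact permutation test could give is 0.1, and single genes were therefore not tested that way.

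The promoter sequences are shown first, because all 9 annotated start windows of the 6 genes lay inside a member region and because the STAT motif bears on the pathway that IL-10 uses. Each window covered 300 bases, from 250 before to 50 after a RefSeq start on the GRCm38.p6 assembly (the build of mm10). The STAT motif TTCNNNGAA, which reads the same on both strands, was found in 5 of the 9 windows (55.6%), against 8.29% of the 32817 RefSeq promoter windows of the same length. It was found at Bcl6, Sbno2 and Zfp36, and in none of the windows of Bcl3, Nfil3 and Etv3. The log2 changes of the gene sums with late IL-10 against LPS did not follow the matches. Without a match they were 2.26 (Nfil3), 1.91 (Etv3) and 1.87 (Bcl3). With a match they were 1.22 (Sbno2), 0.91 (Bcl6) and 0.44 (Zfp36), the last 2 not called. A link between motif and change was not tested. The NF-kB motif GGGNNTTCC, searched on both strands, was found in 2 of the 9 windows, at Bcl3 and at the third Sbno2 window, against 5.82% of all. The NF-kB variant GGGNNTTTC, the AP-1 motif TGANTCA and the CRE motif TGACGTCA were found in 0 of the 9 windows, against 4.36%, 7.81% and 1.79% of all. The 9 windows are not independent, since Bcl6 has 2 and Sbno2 has 3, and a match is a string of letters and not a shown binding site.

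The 250 bases that end at or just before a start are printed 5′ to 3′ on the strand of the gene, with motif matches in capitals, for 6 windows that span the range from 3 matches to none. Bcl6 is shown at its internal start (chr16:23981284-23981533, minus strand), which holds 3 STAT matches at 168, 122 and 88 bases before the start. Sbno2 is shown at its second window (chr10:80101188-80101437, minus strand) and Zfp36 at its only one (chr7:28379229-28379478, minus strand), with 1 STAT match each, at 24 and 17 bases before the start. Bcl3 (chr7:19822756-19823005, minus strand) has an NF-kB match at 104 bases before the start. A second Bcl3 match begins 3 bases past the start and lies outside the printed stretch. Nfil3 (chr13:52981040-52981289, minus strand) and Etv3 (chr3:87525328-87525577, plus strand) hold no match to the motifs searched.
Bcl6: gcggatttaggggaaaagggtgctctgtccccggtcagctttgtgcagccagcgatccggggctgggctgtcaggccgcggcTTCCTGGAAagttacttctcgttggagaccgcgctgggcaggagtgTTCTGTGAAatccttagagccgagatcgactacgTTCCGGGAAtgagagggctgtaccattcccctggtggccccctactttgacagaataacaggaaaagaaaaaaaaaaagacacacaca
Sbno2: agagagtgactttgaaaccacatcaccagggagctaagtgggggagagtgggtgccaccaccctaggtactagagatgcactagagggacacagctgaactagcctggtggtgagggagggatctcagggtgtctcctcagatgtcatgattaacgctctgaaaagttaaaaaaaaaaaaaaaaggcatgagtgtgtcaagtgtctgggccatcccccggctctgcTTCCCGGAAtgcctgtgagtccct
Zfp36: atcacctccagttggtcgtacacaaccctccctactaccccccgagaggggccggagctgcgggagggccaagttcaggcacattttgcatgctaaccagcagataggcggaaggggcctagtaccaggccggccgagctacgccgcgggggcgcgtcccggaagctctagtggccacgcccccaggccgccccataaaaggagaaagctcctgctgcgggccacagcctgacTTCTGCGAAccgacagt
Bcl3: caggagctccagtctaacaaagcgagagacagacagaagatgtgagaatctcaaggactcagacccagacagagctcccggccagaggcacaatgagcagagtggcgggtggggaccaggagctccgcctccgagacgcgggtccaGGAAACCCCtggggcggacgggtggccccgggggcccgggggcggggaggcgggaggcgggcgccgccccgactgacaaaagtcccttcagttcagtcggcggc
Nfil3: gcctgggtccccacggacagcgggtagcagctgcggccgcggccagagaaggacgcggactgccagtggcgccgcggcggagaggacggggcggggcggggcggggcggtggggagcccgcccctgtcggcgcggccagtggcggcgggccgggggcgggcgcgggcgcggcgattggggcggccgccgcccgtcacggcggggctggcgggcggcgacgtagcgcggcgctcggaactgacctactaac
Etv3: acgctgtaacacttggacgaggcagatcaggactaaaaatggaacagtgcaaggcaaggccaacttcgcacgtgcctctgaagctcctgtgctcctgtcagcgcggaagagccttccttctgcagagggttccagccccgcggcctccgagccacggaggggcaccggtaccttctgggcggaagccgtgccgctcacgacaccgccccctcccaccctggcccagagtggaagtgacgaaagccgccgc

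In untreated cells all 6 genes carried the mark. With LPS 1 was called higher and 2 lower, where 14.2% and 13.3% of all genes were. LPS raised Bcl6 from 1519 ± 381 to 7172 ± 2245 (SD, n = 3), 4.63-fold, and lowered Bcl3 and Sbno2, while Nfil3, Etv3 and Zfp36 did not pass the test. Of the 6 fits that each left out 1 library, 5 lost the call of Bcl3 and 4 that of Sbno2. Continuous IL-10 left all 6 sums but that of Bcl6 with a mean above LPS alone, and 2 of them, Bcl3 and Nfil3, passed. With late IL-10 the mean of every gene was above LPS alone, and 4 passed: Nfil3 at 4.78-fold, Etv3 at 3.77-fold, Bcl3 at 3.65-fold and Sbno2 at 2.34-fold. No gene of the 6 was called lower under either schedule.

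Read against all genes, 1 of the 6 was higher and 2 lower with LPS, where 14.2% of all genes were called higher and 13.3% lower. Continuous IL-10 gave 2 higher and 0 lower against LPS, beside 2.59% and 3.17% of all genes. Under late IL-10 it was 4 higher and 0 lower, against 3.19% and 0.26%. The median log2 change of the 6 was 0.01 with LPS, 0.65 with continuous IL-10 and 1.55 with late IL-10, where the medians over all genes were -0.11, 0.03 and -0.16. The replicate number, as a block in the same fit, raised the continuous IL-10 count to 4, adding Etv3 and Sbno2, and the late count to 5, adding Bcl6. That fit called more of all genes too, 7.34% higher and 10.2% lower for the continuous schedule and 6.72% and 3.01% for the late one. Both IL-10 comparisons share the LPS libraries, so they are not independent of each other.

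**Figure D1:**
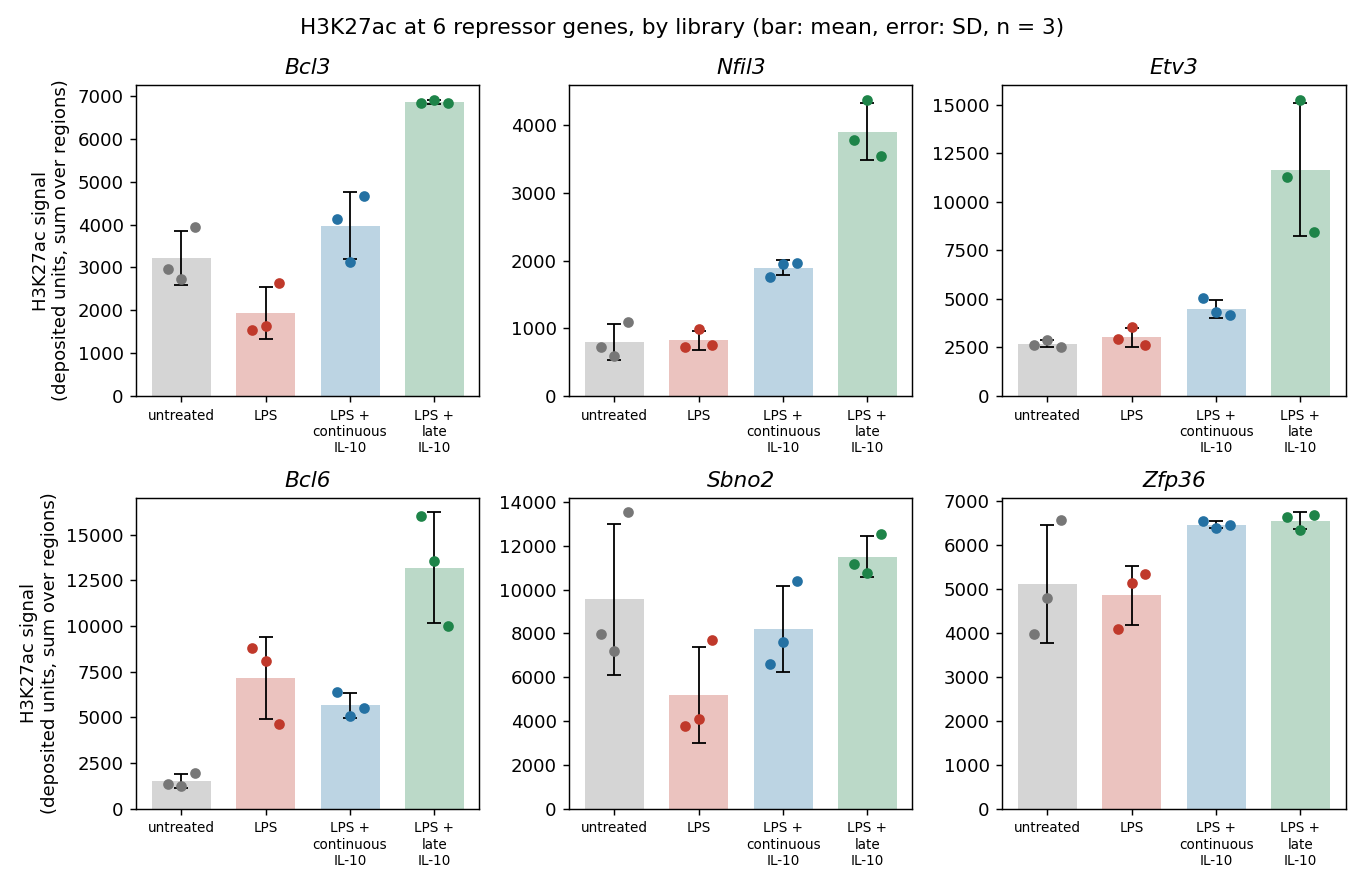
H3K27ac signal summed per gene (y axis, deposited signal) in the 4 groups, with 1 point per library and bars for the mean ± SD of 3 libraries. The late IL-10 libraries lie above all LPS libraries at each of the 6 genes, by a wide margin at Nfil3 and Etv3 and by little at Zfp36. How many of all genes do the same was not counted.

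Bcl3 (chr7:19808462-19822824, minus strand) was lowered by LPS and raised by both IL-10 schedules. Its sum was 2969, 2739 and 3939 in the untreated libraries, 1539, 1633 and 2628 after LPS, 4136, 3119.7 and 4676 under continuous IL-10 and 6833, 6912 and 6828 under late IL-10. The 3 late libraries lay close together and above every other library, and the LPS libraries were the lowest, without overlap with any other group. The LPS change was -0.76 (SE 0.25, adjusted p = 0.038). Against LPS alone, the change was 1.06 (SE 0.25, adjusted p = 0.0255) with continuous IL-10 and 1.87 (SE 0.25, adjusted p = 8.13e-04) with late IL-10. Late IL-10 also stood above the untreated cells, at 1.11 (adjusted p = 0.00444), whereas continuous IL-10 differed from them by 0.30 (adjusted p = 0.504). The late IL-10 call held without any single library (adjusted p up to 0.00703). The LPS call was lost when any one untreated library or LPS replicate 1 or 2 was left out (up to 0.15) or only regions overlapping the gene were summed (0.0525), and the continuous IL-10 call when LPS replicate 1 or 2 or continuous replicate 1 or 3 was (up to 0.125).

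Both Bcl3 regions passed in the same direction in these 3 comparisons. Region 2 (chr7:19811314-19850243) covers the start and most of the gene, runs on upstream, and held 96.2% of the summed signal. It went from 3107 ± 687 untreated to 1909 ± 591 with LPS, 3841 ± 727 with continuous and 6513 ± 17.1 with late IL-10 (SD, n = 3). Region 1 (chr7:19799943-19807341) lies 1121 bp past the 3′ end of the gene and is weak, but its log2 changes were larger. It held 144, 134 and 48.6 untreated, 9.84, 25.2 and 37.6 after LPS, 115, 78.8 and 216 under continuous IL-10 and 336, 382 and 317 under late IL-10. The LPS libraries were again the lowest and the late libraries the highest, without overlap. Its changes were -2.15 (adjusted p = 0.0189) with LPS, and 2.50 (adjusted p = 0.0343) and 3.96 (adjusted p = 0.00341) for continuous and late IL-10 against LPS. The late calls of both regions held without any single library (up to 0.0237). Leaving out LPS replicate 1 or 2 or continuous replicate 1 or 3 ended both continuous calls, and leaving out continuous replicate 2 that of region 1 (up to 0.14). The LPS call of region 1 was lost when untreated replicate 1 or 2 or LPS replicate 1 was left out (up to 0.0803). That of region 2 was lost when this was done with untreated replicate 1 or 3 or with LPS replicate 1 or 2 (up to 0.153), and with edgeR (0.0712) and DESeq2 (0.0934). The continuous call of region 1 missed with edgeR (0.0549).

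Nfil3 (chr13:52967209-52982878, minus strand) showed no called change with LPS and rose with both schedules. The untreated libraries held 717, 589 and 1099.9 and the LPS libraries 720.1, 983 and 759.6, which overlap. Continuous IL-10 gave 1765, 1956 and 1972 and late IL-10 3789.8, 4379 and 3552, so that each schedule stood clear of LPS and the late libraries clear of the continuous ones. The change against LPS was 1.22 (SE 0.26, adjusted p = 0.0164) with continuous IL-10 and 2.26 (SE 0.26, adjusted p = 3.49e-04) with late IL-10. With LPS it was 0.07 (adjusted p = 0.886, 95% interval -0.49 to 0.63). Against untreated cells, continuous IL-10 stood 1.29 (adjusted p = 0.00384) higher and late IL-10 2.33 (adjusted p = 3.86e-05). The late IL-10 call held without any single library (up to 0.00396), while the continuous IL-10 call against LPS ended without LPS replicate 1 or continuous replicate 2 or 3 (up to 0.0758), or when only regions that overlap the gene were summed (0.0663).

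At Nfil3 the sum hides a region that LPS took to the floor of the table. Region 1 (chr13:52960410-52965104), 2105 bp past the 3′ end, held 317, 124 and 277 reads in the untreated libraries and exactly 1 read in each LPS library. Continuous IL-10 gave 31, 37 and 66 reads and late IL-10 137, 151 and 226. Set against 3 reads per library, the deposited value was at least 40.2-fold lower with LPS than in untreated cells (adjusted p = 1.67e-05). It was at least 13.3-fold higher than LPS with continuous IL-10 (adjusted p = 0.00113) and at least 57.7-fold with late IL-10 (adjusted p = 7.09e-05). The sources used here do not say whether input reads were subtracted before this floor, so a region at 1 read is not shown to lack the mark. These 3 calls held without any single library of the groups compared.

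Region 2 of Nfil3 (chr13:52972014-52989821) covers the start, held 86.7% of the summed signal, and was not called lower with LPS. It went from 633 ± 304 untreated to 799 ± 160.2 with LPS, 1656 ± 138 with continuous and 3350.5 ± 355 with late IL-10 (SD, n = 3). Late IL-10 raised it by 2.08 (SE 0.31, adjusted p = 0.00204). The continuous change of 1.07 missed the threshold (adjusted p = 0.0604) and passed with the replicate block (adjusted p = 0.0141), with median centring (0.0374) and with DESeq2 (0.0193). Farther upstream, 2 weak regions rose under both schedules. Region 5 (chr13:53020676-53026917), 37798 bp upstream, held 4, 1 and 1 reads untreated, 20, 1 and 6 with LPS, 80, 147 and 83 with continuous and 167, 131 and 152 with late IL-10. Region 4 (chr13:53017414-53019462), 34536 bp upstream, held 6, 1 and 1 reads with LPS, 28, 68 and 22 with continuous and 65, 62 and 35 with late IL-10, and 1 in each untreated library. Against LPS, region 5 changed by 4.11 (adjusted p = 0.0274) and 4.83 (adjusted p = 0.015), and region 4 by 3.63 (adjusted p = 0.0415) and 4.34 (adjusted p = 0.0236), for continuous and late IL-10. The calls at these 2 regions rest on few reads: with late IL-10 both ended without LPS replicate 2 or late replicate 1 or 2, and that of region 4 also without LPS replicate 3 (up to 0.104). With continuous IL-10 both ended without LPS replicate 2 or any one continuous library, and that of region 4 also without LPS replicate 3 (up to 0.15). With edgeR on recovered reads neither region passed under either schedule (adjusted p from 0.0955 to 0.109), and with each library centred on its median neither passed with continuous IL-10 (0.0516 and 0.0752). Region 3 (chr13:53000916-53002294), 18038 bp upstream, did not pass the filter. It held 1 read in all untreated, LPS and continuous IL-10 libraries and 16, 2 and 6 with late IL-10.

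Etv3 (chr3:87525577-87540158, plus strand) had a single region (chr3:87503324-87531914) that covers its start and extends upstream, and late IL-10 gave its highest values. The libraries held 2642, 2897 and 2531 untreated, 2932, 3554 and 2602 after LPS, 5028, 4314 and 4163 under continuous IL-10 and 11287, 15263 and 8427 under late IL-10. Untreated and LPS libraries overlap, the continuous libraries lie above both, and the late libraries lie above all others with a wide spread. Late IL-10 changed the sum by 1.91 (SE 0.23, adjusted p = 4.63e-04) against LPS and by 2.08 (adjusted p = 3.86e-05) against untreated cells. The continuous change against LPS was 0.58 (adjusted p = 0.181; 0.0447 with the replicate block). With LPS alone the change was 0.16 (adjusted p = 0.669, 95% interval -0.34 to 0.66). The late IL-10 call against LPS held without any single library (up to 0.00447).

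Bcl6 (chr16:23965050-23988866, minus strand) was the one gene of the 6 that LPS raised. Its sum was 1360.2, 1243 and 1954 in untreated libraries, 8815, 8086 and 4614 after LPS, 6389, 5064 and 5537 under continuous IL-10 and 16022, 13542 and 9987 under late IL-10. The continuous libraries lie within the range of the LPS libraries, and the late libraries lie above all others. The LPS change was 2.21 (SE 0.28, adjusted p = 1.09e-04) and held without any single library (up to 0.00105). Continuous IL-10 differed from LPS by -0.29 (adjusted p = 0.715, 95% interval -0.90 to 0.31). Late IL-10 differed from LPS by 0.91 (adjusted p = 0.12; 0.0283 with the replicate block). Against untreated cells both schedules stood higher, at 1.92 (adjusted p = 4.49e-04) and 3.12 (adjusted p = 7.8e-06) for continuous and late IL-10.

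Most of the Bcl6 signal (84.5%) came from region 3 (chr16:23970661-24005040), which covers both annotated starts, and it followed the sum: 1435 ± 409.8 untreated, 6260.1 ± 1706 with LPS, 5116 ± 454 with continuous and 10450.1 ± 1939.6 with late IL-10 (SD, n = 3). LPS raised it by 2.12 (SE 0.26, adjusted p = 6.81e-05), and late IL-10 differed from LPS by 0.76 (adjusted p = 0.171). Region 1 (chr16:23954040-23964765), 285 bp past the 3′ end, took another course. It held 1, 1 and 1 read in the untreated libraries, 16, 23 and 80 reads after LPS, 195, 126 and 136 under continuous IL-10 and 622, 559 and 546 under late IL-10. On the signal scale this was 31.5, 38.7 and 37.1 with LPS, 329, 160.0 and 134 with continuous and 1095, 1002 and 484 with late IL-10, and no 2 groups overlap. LPS raised it at least 15-fold over the floor of 3 reads per library (adjusted p = 1.76e-04). Against LPS it rose by 2.40 (SE 0.62, adjusted p = 0.037) with continuous and 4.47 (SE 0.62, adjusted p = 0.00128) with late IL-10. The continuous call ended without any one library other than LPS replicate 3 (up to 0.148) and with median centring (0.0648), and the late call held without any single library (up to 0.014).

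The log2 ratio of region 1 to region 3 of Bcl6, a pair chosen after the values were seen, ran from -7.82 to -6.82 in the LPS libraries and from -4.13 to -3.38 in the late IL-10 libraries. The ratio is a description and was not tested. Upstream of Bcl6, LPS raised region 6 (chr16:24020871-24033241), 32005 bp upstream, and region 8 (chr16:24066606-24081589), 77740 bp upstream. Region 6 went from 18 ± 26 to 298 ± 232 (SD, n = 3), at 4.74 (adjusted p = 0.00767), and region 8 from 17.1 ± 17.2 to 448 ± 238 (SD, n = 3), at 5.22 (adjusted p = 3.62e-04). Under continuous IL-10 they held 101 ± 66.5 and 183 ± 35.7, and under late IL-10 921 ± 398 and 583 ± 209 (SD, n = 3). None of these IL-10 values passed the test against LPS. Region 4 (chr16:24010194-24014663), 21328 bp upstream, held 59, 70 and 1 reads with LPS, 9, 1 and 1 with continuous and 203, 193 and 94 with late IL-10. Late against continuous IL-10 differed there by 5.71 (adjusted p = 0.0684; 0.00367 with the replicate block). Regions 2, 5 and 7 were weak, with at most 28, 29 and 70 reads in any library, and passed in none of the 4 main comparisons. Region 2 held 1 read in each untreated library and 5, 28 and 16 with late IL-10. Set against 3 reads per library, late IL-10 was at least 10.2-fold above untreated cells there (adjusted p = 0.0106). That call ended without late replicate 2 (0.0562).

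Sbno2 (chr10:80056992-80106108, minus strand) was lowered by LPS, and late IL-10 raised it again. The libraries held 7958, 7186 and 13518 untreated, 3769.9, 4082 and 7696 with LPS, 6603, 7620.1 and 10414 with continuous and 11164, 10772 and 12558 with late IL-10. The late libraries lie above all LPS and all continuous libraries, while LPS replicate 3 lies above the lowest untreated library and the 2 lowest continuous libraries. The LPS change was -0.90 (SE 0.30, adjusted p = 0.0414) and the late IL-10 change against LPS 1.22 (SE 0.30, adjusted p = 0.0428). The continuous change was 0.72 (adjusted p = 0.216; 0.0152 with the replicate block and 8.7e-05 with DESeq2). Against untreated cells late IL-10 differed by 0.32 (adjusted p = 0.474, 95% interval -0.33 to 0.98). Leaving out untreated replicate 1 or 3, or LPS replicate 1 or 2, ended the LPS call (up to 0.168). The late call ended without any one library other than LPS replicate 3 (up to 0.185), and without LPS replicate 3 the continuous change passed (0.0257).

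The calls differed among the 3 Sbno2 regions. Region 2 (chr10:80067614-80091309), inside the gene with 1 internal start, held 2103, 1959 and 3439 untreated, 771, 1018 and 1608 with LPS, 2733, 2317 and 2866 with continuous and 5343, 5479 and 4714 with late IL-10. The LPS libraries were the lowest and the late libraries the highest, with no overlap. LPS changed it by -1.16 (SE 0.29, adjusted p = 0.00768). Against LPS it rose by 1.28 (SE 0.29, adjusted p = 0.0209) with continuous and 2.26 (SE 0.29, adjusted p = 7.84e-04) with late IL-10. The late call held without any single library (up to 0.00734), and the continuous call ended without any one library other than LPS replicate 3 (up to 0.0884).

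Region 3 (chr10:80092561-80119144), over the upstream starts, held 2335 ± 681 untreated and 2571 ± 868 (SD, n = 3) with LPS, a change of 0.13 (adjusted p = 0.771). With late IL-10 it held 4574 ± 609.6, a change against LPS of 0.87 (adjusted p = 0.146; 0.00911 with the replicate block, 0.0215 with median centring and 0.0426 with DESeq2). Region 1 (chr10:80014289-80057012), at the 3′ end, fell with LPS from 4718 ± 1959 to 1479.6 ± 898 (SD, n = 3), at -1.76 (adjusted p = 0.0108), and held 2168 ± 1148 and 1745 ± 764 with continuous and late IL-10. Its LPS call ended without untreated replicate 3 (0.052) or LPS replicate 1 (0.0524). The log2 ratio of region 2 to region 3, again a pair chosen after the values were seen, ran from -1.43 to -1.02 with LPS and from -0.15 to 0.45 with late IL-10. That of region 2 to region 1 ran from -0.65 to 0.03 and from 0.84 to 2.09. These ratios too were not tested. Region 1 is also assigned to Abca7, Arhgap45, Gpx4 and Polr2e, and region 3 is also assigned to Stk11, so only region 2 belongs to Sbno2 alone.

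Zfp36 (chr7:28376784-28379228, minus strand) had 1 region (chr7:28370160-28394990), which it shares with Med29, Paf1 and Plekhg2, and no change there passed the test in any of the 6 comparisons. The libraries held 3968, 4787 and 6575 untreated, 4091, 5125 and 5336 with LPS, 6551, 6374 and 6455 with continuous and 6623, 6334 and 6685 with late IL-10. Both IL-10 groups lie above all LPS libraries with little spread, by 0.42 (95% interval -0.03 to 0.87, adjusted p = 0.305) and 0.44 (-0.01 to 0.89, adjusted p = 0.422). Late and continuous IL-10 differed by 0.02 (95% interval -0.43 to 0.47, adjusted p = 0.976). Without untreated replicate 3, late IL-10 passed against untreated cells (adjusted p = 0.0445, against 0.182 with all libraries).

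Per kb of region, which makes genes comparable in level, the regions over the starts ordered differently in each state. With LPS alone, signal per kb was 195 at Zfp36, 182 at Bcl6 region 3, 106 at Etv3, 96.7 at Sbno2 region 3, 49 at Bcl3 region 2 and 44.9 at Nfil3 region 2. With late IL-10 the order of these same regions was Etv3 at 408, Bcl6 at 304, Zfp36 at 264, Nfil3 at 188, Sbno2 at 172 and Bcl3 at 167. Sbno2 region 2, which holds an internal start, is left out of both orders. It held 47.8 with LPS and 219 with late IL-10, the latter above Nfil3. These are means over regions of unequal width and were not tested between genes.

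Counted by region, 4 of the 19 tested were higher and 5 lower with LPS, where 16.5% of all regions were called higher and 17.9% lower. The 4 higher were all at Bcl6 (regions 1, 3, 6 and 8), and the 5 lower were Bcl3 regions 1 and 2, Nfil3 region 1 and Sbno2 regions 1 and 2. Continuous IL-10 raised 7 and lowered 0 against LPS, where the background was 3.28% higher and 3.24% lower. Late IL-10 raised 9 and lowered 0, against 3.14% and 0.396%. Of the 5 regions that LPS lowered, 4 were among both the 7 and the 9, and Sbno2 region 1 was in neither. The same LPS libraries enter these comparisons, so a low LPS value favours both calls and the overlap is partly built in. The share of all LPS-lowered regions that IL-10 raised was not counted. The median log2 change of the 19 was 0.42 with LPS, 0.58 with continuous and 2.05 with late IL-10, against -0.06, 0.02 and -0.12 over all regions. Without single libraries the number raised by continuous IL-10 ranged from 1 to 6: it was 3 without LPS replicate 1, 1 without LPS replicate 2, 6 without LPS replicate 3, and 1, 2 and 1 without continuous replicates 1, 2 and 3. Without LPS replicate 3, Bcl6 region 4 was called lower (-4.82, adjusted p = 0.0187), as it was with DESeq2 (-3.80, 0.0488), which called 8 higher; edgeR called 4 higher and 0 lower. The late count ranged from 7 to 9.

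**Figure D2:**
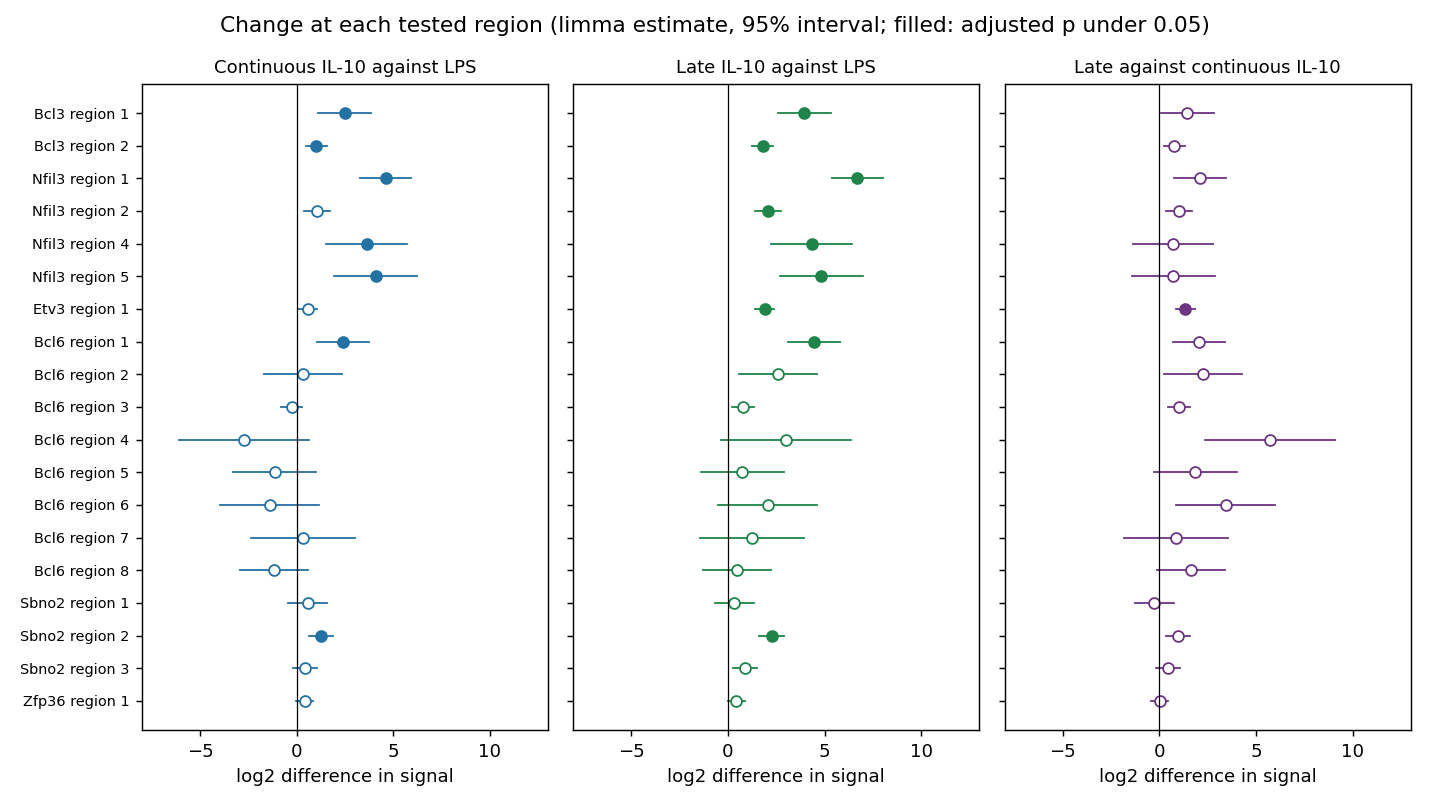
Log2 difference in signal (x axis, limma estimate with 95% interval) for each of the 19 tested regions in 3 comparisons, with filled points where the adjusted p was under 0.05. Filled points number 7 for continuous IL-10, 9 for late IL-10 and 1, Etv3 region 1, for late against continuous IL-10.

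The direct comparison of the schedules asks whether IL-10 in the last 30 min left these genes with more mark than IL-10 throughout. Among gene sums, Etv3 was 2.52-fold and Bcl6 2.3-fold higher with late IL-10, at 1.34 (SE 0.23, adjusted p = 0.0172) and 1.20 (SE 0.28, adjusted p = 0.0433). Late libraries lay above all continuous libraries at 5 of the 6 genes, the exception being Zfp36. The share of all genes that do so was not counted, so this is a description only. The difference was 1.04 at Nfil3 (adjusted p = 0.0536; 0.00745 with the replicate block), 0.81 at Bcl3 (0.105; 0.0108) and 0.51 at Sbno2 (0.434, no call with the block). So 2 of 6 genes were called, where 1.88% of all genes were called higher with late IL-10, and 4 with the block, where 9.69% were. With each library centred on its median, Etv3 and Bcl6 missed the threshold at differences of 1.39 and 1.25 (adjusted p = 0.0835 and 0.125), as they did with edgeR on recovered reads at 1.46 and 1.32 (0.079 and 0.109). DESeq2 called 5 of the 6, all but Zfp36, and it called 903 of all 13480 genes higher, where limma called 254. The Etv3 call ended without continuous replicate 2 or 3 or late replicate 1 or 2 (up to 0.114), and the Bcl6 call without any one library other than late replicate 3 (up to 0.24). Without late replicate 3 that of Nfil3 passed (0.0436).

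By region, only Etv3 region 1 was called, and none was lower, where 1.86% of all regions were called higher and 0.852% lower with late IL-10. Its call ended without continuous replicate 2 (0.0566) or late replicate 1 (0.0738) or 2 (0.0607). With median centring it missed the threshold (1.42, adjusted p = 0.0574) and Sbno2 region 2 passed (1.06, 0.0373). With the replicate block 8 of the 19 were called higher, where 8.02% of all regions were: Etv3 region 1, Bcl3 region 2 (adjusted p = 0.015), Nfil3 regions 1 (0.0257) and 2 (0.0232), Bcl6 regions 1 (0.0234), 3 (0.0138) and 4 (0.00367), and Sbno2 region 2 (0.0151).

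Set against untreated cells, 3 of the 6 genes (Nfil3, Etv3 and Bcl6) were higher with continuous IL-10, where 8.62% of all genes were, and 4 (these and Bcl3) with late IL-10, where 15.7% were. The Etv3 call with continuous IL-10 ended without any one of the 6 libraries compared (adjusted p from 0.0662 to 0.151), while the other calls held. It also missed with edgeR, DESeq2 and median centring (0.192, 0.162 and 0.183). With all their regions summed and all libraries kept, Sbno2 and Zfp36 passed under neither schedule with limma. Both were higher with late IL-10 with DESeq2 (0.51, adjusted p = 0.00173, and 0.57, 0.0314). Summed over region 2, its only region of no other gene, Sbno2 was higher with late IL-10 with limma (1.09, 0.0111). By region, late IL-10 stood higher at Sbno2 regions 2 and 3 (1.09 and 1.00, adjusted p = 0.0102 and 0.015) and lower at region 1 (-1.44, 0.0281). The calls of regions 1 and 3 ended without some single libraries (up to 0.119).

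Among all 13480 genes tested, ordered by the change with late IL-10 against LPS, Nfil3 ranked 249, Etv3 355, Bcl3 377, Sbno2 790, Bcl6 1213 and Zfp36 2265. By the change with continuous IL-10, Nfil3 ranked 925, Bcl3 1209, Sbno2 2092, Etv3 2648, Zfp36 3539 and Bcl6 9307.

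**Figure D3:**
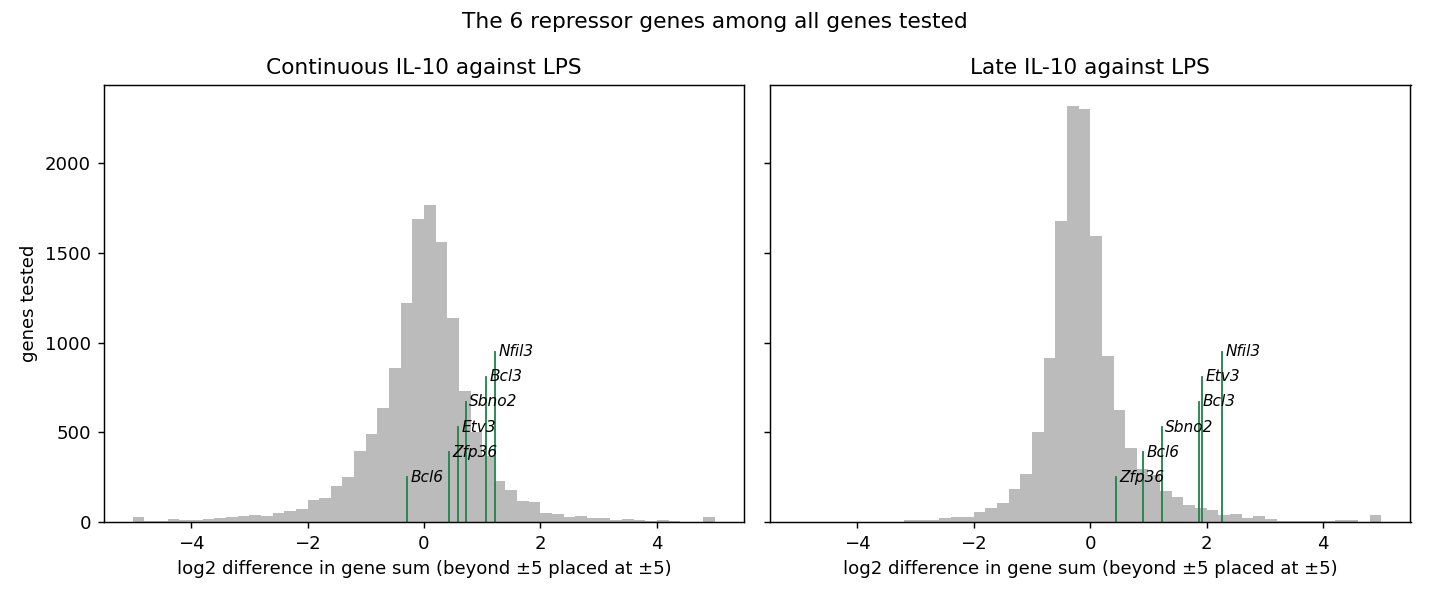
Histograms of the log2 difference in gene sum for all 13480 genes tested (x axis, values beyond 5 placed at the edge; y axis, number of genes), with the 6 repressor genes marked. With late IL-10 all 6 lie to the right of 0, from 0.44 at Zfp36 to 2.26 at Nfil3, and with continuous IL-10 Bcl6 lies to the left, at -0.29.

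The 6 genes also differed in how they varied over the 12 libraries. As a description, the Pearson correlation of log2 sums was highest between Nfil3 and Etv3 (r = 0.929) and lowest between Bcl6 and Sbno2 (r = -0.029), where the libraries share groups, pools and depth. The tested genes most like each member over the 12 libraries were Ctnnb1, Ccm2l and Syna for Bcl3 (r = 0.979, 0.973 and 0.97), and Vav1, Ptpn1 and Dgkg for Nfil3 (0.975, 0.974 and 0.971). They were Accsl, Casp12 and St3gal4 for Etv3 (0.974, 0.973 and 0.969) and Xirp1, Ap3b1 and Abcc4 for Bcl6 (0.987, 0.984 and 0.983). For Sbno2 they were Txn2, Pxn and Sirt4 (0.952, 0.949 and 0.945), and for Zfp36 Ugt1a6a, Lars and Sh2b2 (0.915, 0.91 and 0.899).

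Upstream of the members in the pathway, the IL-10 receptor and its signalling genes behaved unevenly. Of the 7 genes counted (Il10ra, Il10rb, Jak1, Tyk2, Stat3, Socs3 and Socs1), 4 rose and 1, Jak1, fell with LPS. Tyk2, a receptor-associated kinase, then fell with continuous IL-10 (-1.89 against LPS, adjusted p = 8.13e-04), from a mean sum of 3037 to 818. Jak1, the other kinase, rose with late IL-10 (1.50, adjusted p = 0.00205), from 1562 to 4514. These were the 1 lower gene with continuous and the 1 higher gene with late IL-10, and both calls held without any single library. Tyk2 shares a region with Cdc37, Socs3 with Pgs1 and Socs1 with Tnp2. Socs3, the feedback inhibitor that Stat3 induces, missed the threshold at 0.64 (0.103) and 0.80 (0.0595) and passed under both schedules with the replicate block (0.0289 and 0.0127). The block also called Socs1 lower with continuous IL-10 (-1.35, 0.0431) and Tyk2 lower with late IL-10 (-0.74, 0.0391). The median log2 change of the 7 was 0.96 with LPS, -0.18 with continuous and 0.20 with late IL-10. Over all genes it was -0.11, 0.03 and -0.16. Of all genes, 14.2% were called higher and 13.3% lower with LPS. These shares were 2.59% and 3.17% with continuous and 3.19% and 0.26% with late IL-10 against LPS.

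Of 12 other genes reported to respond to IL-10, 2 (Il4ra and Hmox1) were higher with continuous and 4 (Il4ra, Il21r, Arid5a and Sphk1) with late IL-10 than with LPS alone, and none was lower. Il4ra, the IL-4 receptor chain, went from a mean of 5241 to 11205 and 15747, at 1.09 (adjusted p = 0.00655) and 1.59 (4.85e-04), and shares a region with Il21r. Arid5a, an RNA-binding protein, rose with late IL-10 from 349.6 to 1694 (2.34, adjusted p = 0.00401). Sphk1, a sphingosine kinase, was near the floor with LPS, at a mean of 4.42, and held 349 with late IL-10 (adjusted p = 9.92e-04). The 4 late calls held without any single library, and that of Il21r missed with edgeR (0.066). The continuous call of Il4ra missed with edgeR and with median centring (0.0766 and 0.0577), and edgeR called 0 of the 12 higher with continuous IL-10. With the replicate block 5 were higher with continuous IL-10 (Cd163, Ddit4 and Sphk1 added) and 7 with late IL-10 (Gadd45g, Il1rn and Tnip3 added). The call of Hmox1 with continuous IL-10 ended without any one library other than LPS replicate 3 (up to 0.194), and with edgeR, DESeq2 and median centring (0.123, 0.0694 and 0.0932). The median change of the 12 was 0.40 with continuous and 1.13 with late IL-10.

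Related genes of the same families gave values of their own. Of 15 paralogs, 14 were tested, and with late IL-10 none was called against LPS (at an unadjusted p under 0.05, limma gave 2 higher and 2 lower; edgeR called 0 and DESeq2 1 higher). With the replicate block Nfkbia and Zfp36l1 were higher (0.025 and 0.0467) and Nfkbiz lower (0.0101). With continuous IL-10, 2 rose and 2 fell, and 5 and 3 with the block. Zfp36l1, which like Zfp36 binds AU-rich elements, fell with LPS from 2924 to 576 and held 1430.5 with continuous IL-10 (1.44 against LPS, adjusted p = 0.0213). That last call ended without any one library other than LPS replicate 3 (up to 0.107). Bcl6b, the closest relative of Bcl6, fell from 108 with LPS to 4.46 with continuous IL-10 (-4.42, adjusted p = 0.00308), a call that held without any single library. The other 2 calls, Etv5 higher and Nfkbib lower, ended without LPS replicate 1 or continuous replicate 2 or 3, and that of Nfkbib also without LPS replicate 2 or continuous replicate 1 (up to 0.211). Both missed with edgeR (0.0524 and 0.0747), and that of Nfkbib with median centring (0.136). Zfp36l1 shares a region with Gm52006, Nfkbib with Sirt2 and Nfkbiz with Nxpe3. Median changes of the paralogs were 0.39 with continuous and -0.40 with late IL-10.

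The partners and cofactors (Nfkb1 and Nfkb2, whose products Bcl3 binds, and Ncor1, Bcor, Ddx20, Cnot1 and Hdac3) showed 0 calls of 7 under either IL-10 schedule against LPS. At an unadjusted p under 0.05, limma gave 2 lower with continuous and 0 with late IL-10, edgeR gave 0 calls in both, and DESeq2 gave 1 lower with continuous and 0 with late IL-10. With the replicate block Nfkb1 and Nfkb2 were lower with continuous IL-10 (-1.10 and -0.80, adjusted p = 0.0254 and 0.0375). With LPS, Nfkb1 and Nfkb2 rose (1.85 and 2.01, adjusted p = 0.00593 and 3.65e-04). Bcor fell (-1.15, adjusted p = 0.0466), a call that ended without any one library other than LPS replicate 3. Ddx20 missed the threshold with LPS (0.0894) and was called lower with the block, median centring, edgeR and DESeq2 (0.012 to 0.031).

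At the other end of the pathway stand inflammatory genes that the members are reported to restrain. All 10 listed (Tnf, Il6, Il12b, Cxcl1, Cxcl2, Ccl2, Ccl3, Csf2, Ptgs2 and Il1b) rose with LPS; Cxcl1 and Cxcl2 share all their regions, so they are 1 measurement. The LPS call of Ccl2 missed with edgeR and with median centring (0.0706 and 0.11). Continuous IL-10 lowered 4 of them against LPS, Il6, Il12b, Ccl2 and Tnf, and late IL-10 none (1 lower at an unadjusted p under 0.05, 0 with edgeR and 0 with DESeq2). With the replicate block Tnf was lower with late IL-10 (0.0137), and Csf2 was also lower with continuous IL-10 (0.00134). Tnf held 15914 with LPS, 9048 with continuous and 9638 with late IL-10, at -0.82 (adjusted p = 0.0207) and -0.72 (0.0511). Ccl2 held 3671, 346 and 5314. The Tnf sum shares a region with Atp6v1g2, Lst1, Lta, Ltb and Nfkbil1, and that of Ccl2 with Ccl7, so neither is of that gene alone. The continuous call of Tnf missed with edgeR (0.0815) and with median centring (0.116), and that of Ccl2 with median centring (0.0549). The count of 4 fell to 1 without LPS replicate 1 or 2 and to 2 without continuous replicate 2. The median change of the 10 was -0.94 with continuous and -0.35 with late IL-10, where those of the 6 repressor genes were 0.65 and 1.55. Over all genes the medians were 0.03 and -0.16. Of all genes, 14.2% were called higher with LPS, 3.17% lower with continuous and 0.26% lower with late IL-10. At that late share, 0 of 10 does not set these genes apart from all genes.

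**Figure D4:**
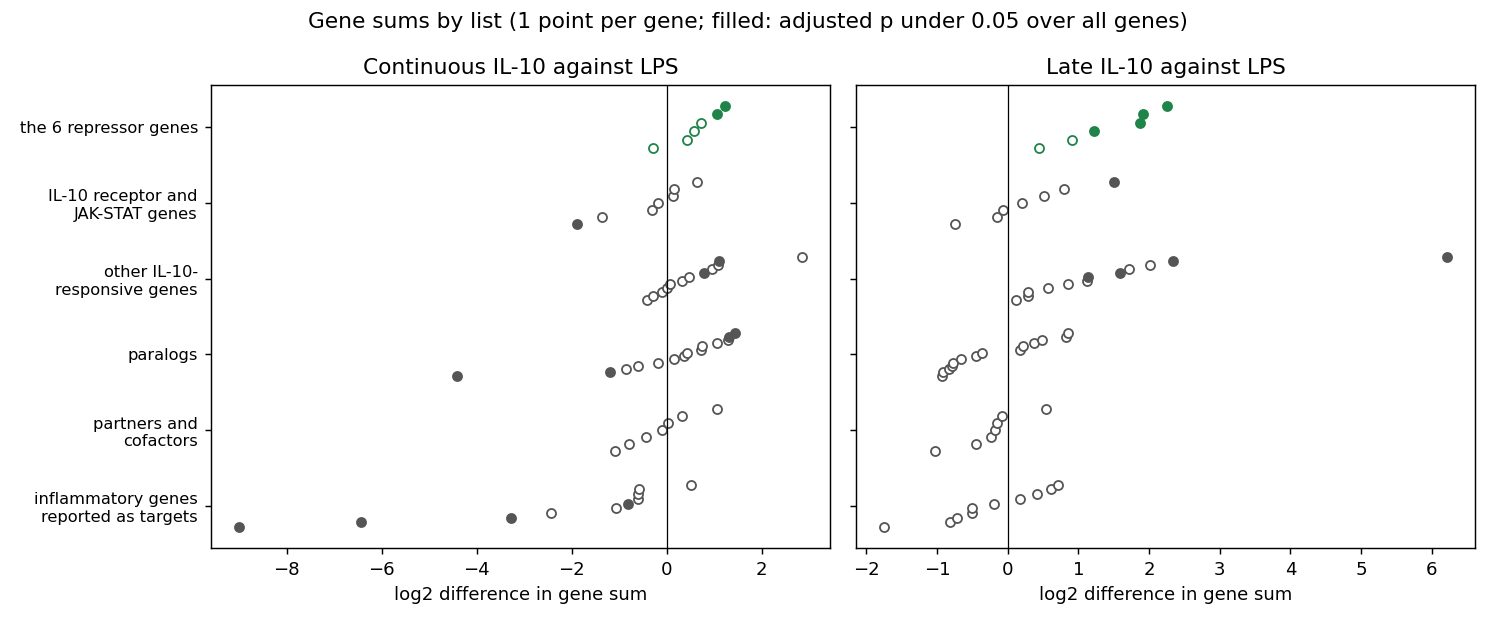
Log2 difference in gene sum (x axis) for the 6 repressor genes and 5 lists of related genes, 1 point per gene, filled where the adjusted p was under 0.05 over all genes. The 4 filled repressor genes with late IL-10 lie between 1.22 and 2.26, and no paralog, partner or inflammatory gene is filled in that comparison. Of all genes, 3.19% were called higher and 0.26% lower there, so lists of this size may hold no call.

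Markers of macrophages were high throughout: all 10 listed had a region, and their summed signal was between 39205 and 69694 in every library. Among markers of other cells, Ly6g stayed at or under 3 reads per region in all libraries, and Cd3g, Cd8a, Cd79b, Mpo and Pdgfra had no region. Neutrophil markers did not go one way. Elane and Mmp8, 2 of 4 tested, were lower with LPS and higher with both schedules, but edgeR called neither under either schedule (adjusted p from 0.0505 to 0.206). Camp rose with LPS (7.57, adjusted p = 3.21e-04) and was not called with IL-10 (-0.10 and -0.64), and Ltf was lower with late than with continuous IL-10 (-1.52, adjusted p = 0.0497). Mmp8 had means of 1734, 422, 979.6 and 1297 in untreated, LPS, continuous and late IL-10 libraries. The summed level of that list ran from 2821 to 3899, 2249 to 2526, 3224 to 3490.3 and 2631 to 2951 in the 4 groups. The fibroblast list ran from 7.54 to 16.4 in untreated and from 399 to 12968 in LPS-treated libraries, carried by Dcn. The T cell sums lay between 249.5 and 529.5, the B cell sums between 1552 and 3246, and the dendritic cell sums between 2894 and 9685. The part of these markers in the changes at the 6 genes was not tested.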

How the data were processed

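ChIP-seq for H3K27ac gave 12 libraries (4 groups of 3, with the groups and replicate numbers taken from the labels). The tools were Trim Galore, Bowtie2, MACS2 and DiffBind and the build mm10, per the submitters' processing notes; the sources used here give neither roles nor versions. The authors deposited a table of signal, with 1 value for each library in each of 40691 consensus regions (median width 3061 bp). Whole multiples of 1 read made up 100% of the values of every library (tolerance 0.0001 reads), with a floor of 1 read that 19.7% to 29.9% of the regions of a library sat on, so whole reads could be recovered from the deposited signal.

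Regions were assigned to every protein-coding gene they overlapped (27528 regions) or else to the nearest within 100 kb (10314), with RefSeq genes of GRCm38.p6, and 2849 had none. Coordinates are those of the table, which does not state whether it counts from 0. A region counts in full for each gene it is assigned to. limma 3.58.1 (R 4.3.3, trend and robust moderation) was fitted to log2(value + 1) over the 12 libraries with a term for the group alone, for regions and genes whose mean log2 value was above the 10th percentile. It was also run on simulated data with independent libraries, without a shared pool effect or a floor of 1 read. That run therefore does not bear on paired libraries or on regions at the floor. Folds on this scale understate weak regions. Where all libraries of a group had at most 3 reads, a lower bound against 3 reads per library is given. Promoter windows came from RefSeq (GRCm38.p6), and all 6 symbols matched.

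edgeR 4.0.16 on the recovered reads called 7166 regions higher and 5479 lower with LPS (limma 6053 and 6573), 813 and 1028 with continuous IL-10 against LPS (1201 and 1186), 833 and 91 with late IL-10 (1149 and 145), and 496 and 180 with late against continuous IL-10 (680 and 312). DESeq2 1.42.0, another pseudocount, no filter, median centring, other sets of regions per gene and leaving out each library were also run. The labels name 3 macrophage pools, and libraries with the same number deviated from their group means together (correlations of 0.134 to 0.712 in 5 of the 6 comparisons). The main fit holds no term for the pool, so its adjusted p are all unpaired. A replicate block pairs libraries by number. For these 5 comparisons its result is printed where a call of a member differs. For the 5 lists of related genes it is printed where a count differs for an IL-10 schedule against LPS. Most other list counts with the block are not printed. Between late and continuous IL-10 it called 7 of the 12 other IL-10-responsive genes higher (1 in the main fit). There it also called 5 of the 14 paralogs tested lower (0 in the main fit). Between continuous IL-10 and untreated cells 1 pair was at 0.099, and the block result is given only in the last section. P-values of the main fit rest on the spread among the libraries of a group, which holds pool differences and library noise together. They do not measure how a change itself varies between the pools.

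All 6 members are named, with every region called in one of the 4 main comparisons, the strongest region of each gene, and the 3 tested genes most correlated with each that share no region with it. The members, lists and tests were chosen with earlier results of these data known. In each of 2 lists, 1 gene is not reported here, and counts and medians leave it out.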

Additional observations from a re-analysis of the deposited data

Results flagged for a closer look

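The effect of IL-10 on LPS-treated cells differed between its schedules at Etv3 and Bcl6. The direct test of late against continuous IL-10 gave a log2 difference of 1.3355 for the Etv3 sum (adjusted p = 0.0172 from limma) and for its only region, Etv3 region 1 (1.3355, adjusted p = 0.0128), with all 3 late libraries above all 3 continuous libraries. For the Bcl6 sum the difference was 1.1986 (adjusted p = 0.0433), again without overlap. Neither gene sum passed with edgeR on recovered reads (differences of 1.46 for Etv3 and 1.32 for Bcl6, adjusted p = 0.079 and 0.109) or after median centring (1.39 and 1.25, 0.0835 and 0.125), where Etv3 region 1 also missed (1.42, 0.0574).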

How the results depend on the processing

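No called change reversed under the alternatives run, and 30 of the 1410 values recomputed, over 12 changes called in neither fit, had the other sign. Of the 1410, 1253 stayed on their side of the threshold, 105 no longer passed and 52 newly passed. Member regions called with continuous IL-10 against LPS went from 7 to 4 with edgeR, and from 1 to 7 in either direction without single libraries. Regions called between late and continuous IL-10 went from 1 to 4 with a pseudocount of 10, 8 with the replicate block and 8 with DESeq2. They ranged from 0 to 3 without single libraries. Over all regions DESeq2 called 2168 higher and 910 lower there, where limma called 680 and 312. Of the gene sums, those called with LPS numbered 3, and 1 to 3 without single libraries. Those called with continuous IL-10 against LPS went from 2 to 4 with the replicate block and 1 with only the regions that overlap the gene, and ranged from 0 to 3 without single libraries. Those called between late and continuous IL-10 went from 2 to 0 with median centring and with edgeR, 4 with the replicate block, 5 with DESeq2 and 1 with only overlapping regions, and ranged from 0 to 3 without single libraries. The cause of these shifts was not tested, other than that fewer regions enter the sums in the last setting. Between continuous IL-10 and untreated cells the block changed no call of a gene sum (3 in both fits), and the member regions called went from 7 higher and 0 lower to 9 and 2. In these comparisons 11 of the 12 libraries correlated best with a library of their own number.

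Over all genes, the split of calls (higher and lower) between late and continuous IL-10 was 254 and 90. It was 111 and 89 with median centring, 90 and 52 with edgeR, and 903 and 446 with DESeq2. With continuous IL-10 against LPS it was 349 and 427, and 405 and 239 with median centring. With late IL-10 against LPS it was 430 and 35, and 681 and 155 with DESeq2. Depth limits the weak regions: Nfil3 regions 3 to 5 and Bcl6 regions 2, 4, 5 and 7 held at most 203 reads in any library and 1 read in at least 1.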
